A study of Mus musculus with 12 samples.

Results

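The coreceptor genes Cd4, Cd8a and Cd8b1 were examined together with the Runx factors Runx1, Runx2 and Runx3, their partner Cbfb, and Gata3 and Tox, which act in the choice between the CD4 and CD8 lineages. These 9 genes were chosen by name from the 26629 genes of the deposited FPM table and followed in all 12 libraries. The libraries form 4 groups of 3, made from sorted T cells of C57BL/6 mice with floxed Lrf alleles. KO IELp and control IELp are thymic precursors of intraepithelial lymphocytes (IEL, T cells of the gut lining), from mice with the genotype Cd4 Cre+ Lrf fl/fl in the KO group and Cd4 Cre- Lrf fl/fl in the control group. KO CD8aa spleen cells came from Cd4 Cre+ Lrf fl/fl mice and control CD8aa IEL from Cd4 Cre- Lrf fl/fl mice. Cre driven by Cd4 sequences is active from the stage at which thymocytes carry both coreceptors, so T cell lineages that pass through it would lose Lrf in KO mice. The floxed alleles are common to all 4 groups and control mice carry no Cre, so an effect of Cre itself cannot be told apart from the loss of Lrf. Neither the ages of the mice nor separate animals for the replicates are stated in the labels, and p-values therefore measure the spread between these samples, which may be technical.

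The gates bear directly on the coreceptor genes. IELp were sorted as cells with TCRβ, high CD5, CD122, H-2Kb and high PD-1 and without CD4, CD8α or CD44. CD8aa cells were sorted as CD45 and TCRβ positive cells with CD8α and without CD4 or CD8β. CD4 protein was thus selected against in all 4 groups, while CD8α was selected against in IELp and for in CD8aa cells. KO and control IELp differed in genotype alone. KO CD8aa spleen cells and control CD8aa IEL passed the same gate but differed in tissue as well as genotype, which cannot be told apart. Between CD8aa cells and IELp of 1 genotype the stage, the tissue and the gate all changed, and Cd8a and Cd8b1 are described there without a test. Whether that change differed between the genotypes was tested for all 9 genes, these 2 included.

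CD4 and CD8 are coreceptors that bind major histocompatibility complex molecules and bring the kinase Lck to the T cell receptor. CD8 is made either of a CD8α chain paired with a CD8β chain (genes Cd8a and Cd8b1), the form of conventional cytotoxic T cells, or of paired CD8α chains, a form found on many intraepithelial lymphocytes. Runx proteins bind DNA as a complex with CBFβ. In T cells Runx complexes act on a silencer in the Cd4 gene and on enhancers of the Cd8 genes, Runx1 being used in early thymocytes and Runx3 in CD8 T cells. LRF, encoded by Zbtb7a, and its relative ThPOK, encoded by Zbtb7b, are zinc finger factors that oppose Runx action during CD4 lineage choice. GATA3 acts upstream of ThPOK, and TOX is needed for development of the CD4 lineage.

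The Runx genes carry the binding motif of their own family near their distal start sites, and these windows are shown because the values below turn on how the Runx genes moved relative to each other. Each window holds 30 bases, 5′ to 3′ on the strand of the gene, taken from RefSeq promoter sequences of build GRCm38.p6, with the motif AACCACA in capitals.
Runx1, chr16:92826025-92826054, minus strand: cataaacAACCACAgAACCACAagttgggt
Runx2, chr17:44814583-44814612, minus strand: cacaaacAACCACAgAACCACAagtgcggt
Runx3, chr4:135120503-135120532, plus strand: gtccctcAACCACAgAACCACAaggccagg
All 3 windows share the 18-base run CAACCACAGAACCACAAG, which was found in 4 of 32851 mouse promoter sequences of 300 bases (0.0122%), the other one belonging to Gm16225. The motif AACCACA alone, read on both strands, was present in 1731 of these promoters (5.27%), and 67 (0.204%) held 2 or more copies. The distal promoters of Runx1 and Runx3 held 2 copies each and that of Runx2 held 3. The proximal promoters of Runx1 and Runx3 and the promoters of Cd8a, Cbfb and Gata3 held 0. For Cd4, Cd8b1 and Tox no promoter is shown. A match is a description of these letters and does not show that a factor is bound.

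Gene counts summed to between 13432598 and 19947734 per library, and values are in FPM, which here are CPM of the gene counts. Zbtb7a, the targeted gene (chromosome 10, 81135220 to 81152995, plus strand, mm10), averaged 45.5 ± 4.66 FPM in KO IELp and 75.4 ± 6.27 FPM in control IELp, and 61.3 ± 2.13 FPM in KO CD8aa spleen cells and 111 ± 8.91 FPM in control CD8aa IEL (SD, n = 3 each). Transcript was still counted in KO cells, and the floxed exons are not named in the labels. Genes outside the set that encode proteins of the IELp gate followed it in part. Pdcd1, which encodes PD-1, averaged 1548 ± 70.7 FPM in KO IELp and 1507 ± 70.3 FPM in control IELp. Cd44 averaged 3.17 ± 0.441 and 6.41 ± 0.894 FPM in these groups (log2 fold change -0.99, edgeR adjusted p = 0.00688). In KO spleen cells and control IEL, Cd44 averaged 107 ± 7.55 and 38.2 ± 8.58 FPM. Against IELp of their genotype, Pdcd1 was lower in these cells (-3.14 and -7.58). Il2rb, which encodes CD122, averaged 3069 ± 114 and 3033 ± 50.4 FPM in KO and control IELp. It averaged 4673 ± 25.7 FPM in KO spleen cells and 2550 ± 68.4 FPM in control IEL. Trac, the constant region of the T cell receptor α chain, was between 1192 and 1487 FPM in all 12 libraries.

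In KO IELp against control IELp, 3 of the 9 genes passed the test, 2 higher (Cd8a and Runx3) and 1 lower (Cd4), where 13.1% of all 14629 tested genes passed, 6.48% higher and 6.58% lower (edgeR's quasi-likelihood test at an adjusted p under 0.05 by the Benjamini-Hochberg method). In KO CD8aa spleen cells against control CD8aa IEL, 7 of the 9 passed, 3 higher (Cd4, Cd8b1 and Runx1) and 4 lower (Cd8a, Runx2, Runx3 and Tox), where 58.2% of all tested genes passed, 29.1% higher and 29.2% lower. In KO CD8aa spleen cells against KO IELp, 6 of the 7 genes other than Cd8a and Cd8b1 passed, 4 higher and 2 lower, beside a background of 45.0%, with 22.6% higher and 22.4% lower. In control CD8aa IEL against control IELp, 6 of these 7 passed, 2 higher and 4 lower, beside 64.8%, with 31.9% higher and 32.9% lower. Gata3 was the only member that passed in none of the 4 comparisons with edgeR. Comparisons here share groups, so the 4 sets of values are not independent of each other. The edgeR fit scales libraries with TMM factors and the FPM do not. With limma on log2(FPM + 1), the median over all tested genes moved to 0.110 in KO spleen cells against control IEL, -0.107 in KO spleen cells against KO IELp and -0.213 in control IEL against control IELp. The higher share of the calls was then 38.3% in KO against control IELp, 35.7% in KO spleen cells against KO IELp and 34.0% in control IEL against control IELp, beside 49.6%, 50.3% and 49.2% with edgeR.

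**Figure D1:**
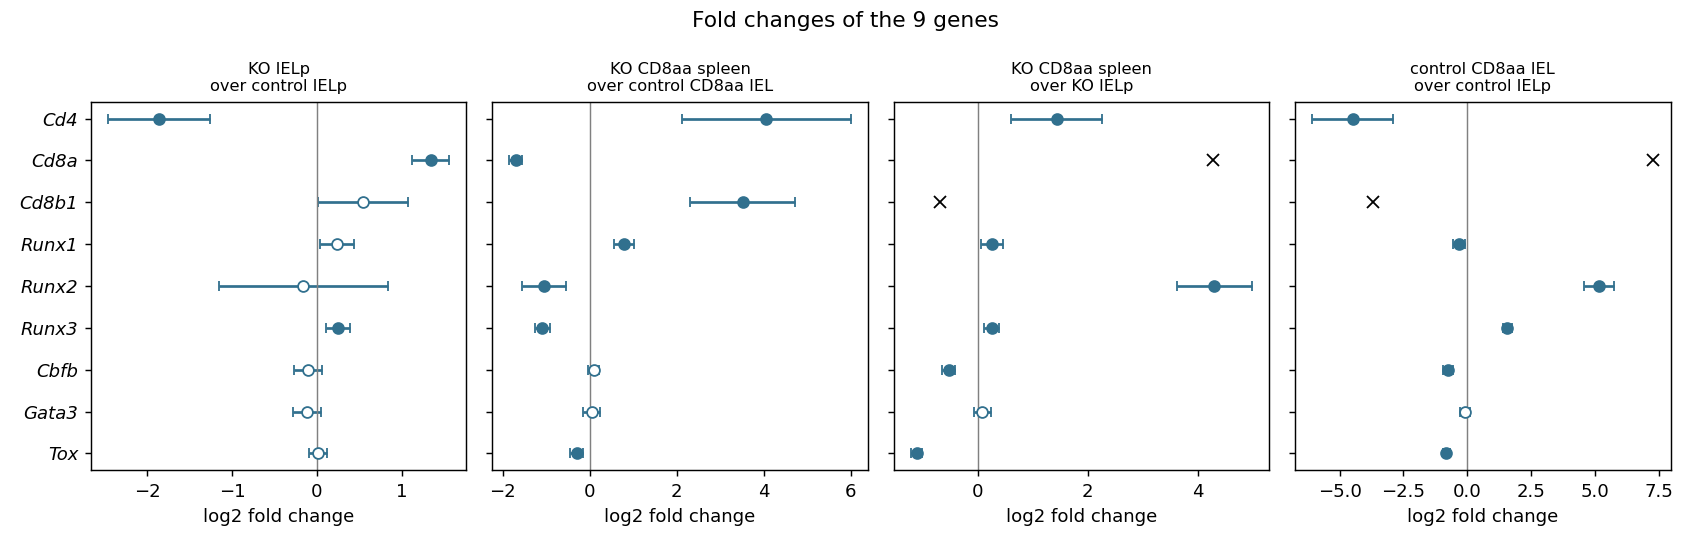
Log2 fold changes of the 9 genes in the 4 comparisons, each panel named by its groups, with 95% intervals of the edgeR fit (3 libraries a group). Filled circles passed the adjusted threshold of 0.05, open circles did not, crosses are Cd8a and Cd8b1 where the gates differ and no test is given, and each panel has its own x axis. Cd4 (-1.86) and Cd8a (1.34) lie on opposite sides of 0 in KO IELp, and on the opposite sides again in KO spleen cells over control IEL (4.06 and -1.70).

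Cd4 and Cd8a moved in opposite directions in KO IELp, although both proteins were selected against in the sort. Cd4 (chromosome 6, 124864692 to 124888221, minus strand, mm10) stood at 1.39, 2.05 and 2.53 FPM in the 3 KO IELp libraries, against 5.05, 7.94 and 9.28 FPM in control IELp. Every KO IELp library was below every control IELp library. The fall was 1.86 on the log2 scale (log2 fold change -1.86, SE 0.28, edgeR adjusted p = 0.000413). It passed in all 13 alternative settings. In libraries of pooled cells, fewer cells with the transcript and less transcript per cell cannot be told apart. Cd8a (chromosome 6, 71373427 to 71379173, plus strand) stood at 46.9, 43.3 and 49.4 FPM in KO IELp, against 18.3, 20.2 and 17.5 FPM in control IELp. The groups did not overlap, and Cd8a rose 2.53-fold (log2 fold change 1.34, SE 0.10, edgeR adjusted p = 6.28e-07), which also passed in all 13 alternatives. Cd8b1, which lies beside Cd8a (chromosome 6, 71322788 to 71337494, plus strand), had 6.80, 7.16 and 4.59 FPM in KO IELp and 4.78, 5.12 and 2.95 FPM in control IELp. These ranges overlapped and the difference did not pass (log2 fold change 0.54, 95% interval 0.012 to 1.07, edgeR adjusted p = 0.184).

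Within IELp the chain balance was measured as Cd8b1 over Cd8a counts in each library, which is free of library scaling. The log2 ratio was -2.78, -2.59 and -3.42 in KO IELp and -1.93, -1.97 and -2.56 in control IELp. All 3 KO libraries lay below all 3 control libraries, by 0.78 on average (difference -0.78, SE 0.32), and a 2-sided exact permutation test reached p = 0.1, which is its minimum for 3 against 3 libraries. Per kb of exon, the level of Cd8b1 was 33.0 ± 9.17% of Cd8a in KO IELp and 55.8 ± 12.7% in control IELp (SD, n = 3 each).

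In CD8aa cells the 3 coreceptor genes differed in the other direction for Cd4 and Cd8a. Cd4 had 4.51, 2.65 and 8.19 FPM in KO CD8aa spleen cells, against 0, 0 and 0.761 FPM in control CD8aa IEL. Replicate 3 held all 14 Cd4 counts of the control IEL group, and a count of 0 in the other libraries allows up to 0.184 and 0.193 FPM (3 counts, for counting error only). Cd4 was higher in KO spleen cells (log2 fold change 4.06, SE 0.87, edgeR adjusted p = 0.0025), but DESeq2 gave an adjusted p of 0.0588. Without control IEL replicate 3, the mean of KO spleen cells was 26.5 times the 0.193 FPM floor of 3 counts. That ratio takes no account of the spread of KO spleen cells. With all 3 control libraries the edgeR difference was 16.7-fold. Cd8a had 846, 882 and 786 FPM in KO spleen cells, against 2487, 2361 and 2675 FPM in control IEL. Both groups were sorted for CD8α protein, and Cd8a fell to 0.307 of its control level (log2 fold change -1.70, SE 0.06, edgeR adjusted p = 1.37e-08).

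Cd8b1 was low in both CD8aa groups, which were sorted as lacking CD8β. It had 4.51, 2.59 and 3.50 FPM in KO spleen cells, against 0.553, 0.0643 and 0.217 FPM in control IEL. The control values rest on 9, 1 and 4 counts. The groups did not overlap, and Cd8b1 rose 11.4-fold (log2 fold change 3.51, SE 0.54, edgeR adjusted p = 0.000319). Without control IEL replicate 1 the log2 fold change was 4.41. The log2 ratio of Cd8b1 to Cd8a counts was -7.54, -8.39 and -7.80 in KO spleen cells and -12.06, -14.58 and -13.42 in control IEL, a difference of 5.44 (SE 0.77, exact permutation p = 0.1, 2-sided, the smallest possible). Per kb, Cd8b1 was 1.04 ± 0.297% of Cd8a in KO spleen cells and 0.0270 ± 0.0247% in control IEL (SD, n = 3 each), where it was 0.0133% without replicate 1.

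Across the gates, Cd8a averaged 838 ± 48.7 FPM in KO spleen cells and 46.5 ± 3.06 FPM in KO IELp, and 2508 ± 158 FPM in control IEL and 18.7 ± 1.36 FPM in control IELp (SD, n = 3 each). These differences go with the sort for and against CD8α. Cd8b1 averaged 3.54 ± 0.959 FPM in KO spleen cells and 6.18 ± 1.39 FPM in KO IELp, and 0.278 ± 0.250 FPM in control IEL and 4.28 ± 1.17 FPM in control IELp. Cd4, selected against throughout, averaged 5.12 ± 2.82 FPM in KO spleen cells and 1.99 ± 0.575 FPM in KO IELp (log2 fold change 1.44, SE 0.38, edgeR adjusted p = 0.00814). That call was lost with limma on log2(FPM + 1), with an adjusted p of 0.0542. In control cells Cd4 averaged 0.254 ± 0.439 FPM in IEL and 7.42 ± 2.16 FPM in IELp, and it fell by 4.50 on the log2 scale (SE 0.72, edgeR adjusted p = 0.000244). Without IEL replicate 3, the control IELp mean was 38.4 times the 0.193 FPM floor of 3 counts in control IEL. That ratio takes no account of the spread of control IELp (5.05 to 9.28 FPM). The order of the group means was therefore control IELp, KO spleen cells, KO IELp and control IEL, and the ranges of the first pair in that order overlapped.

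**Figure D2:**
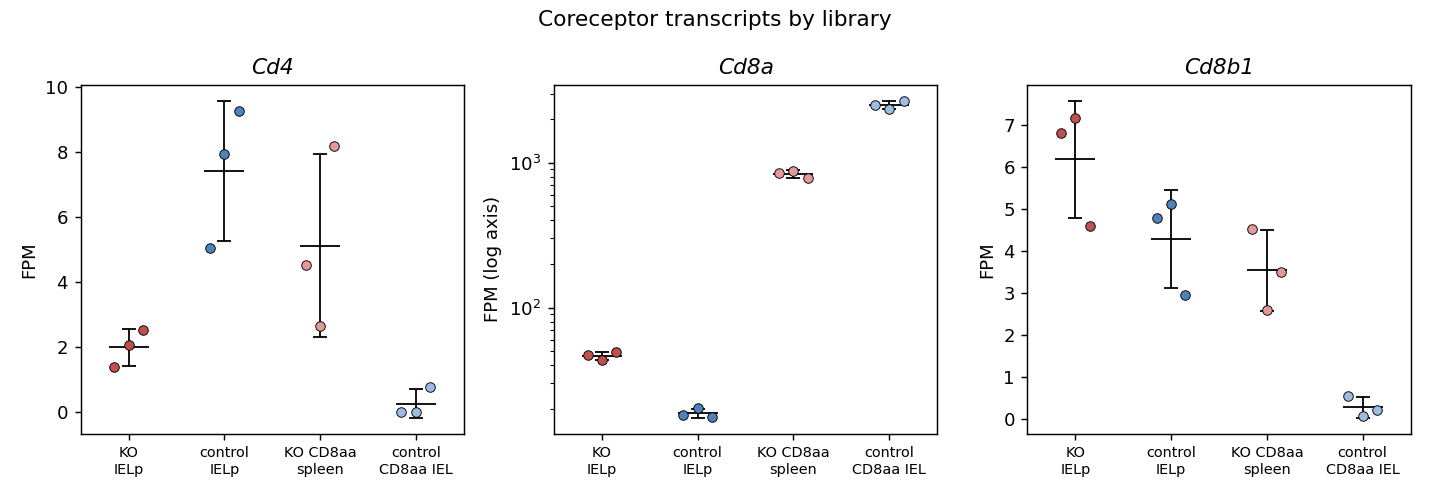
FPM of Cd4, Cd8a and Cd8b1 in each of the 12 libraries (points), with the mean and SD of each group of 3 (bars), and a log axis for Cd8a. Cd4 is at or below 2.53 FPM in KO IELp and at 0 in 2 control CD8aa IEL libraries, and Cd8a spans 17.5 to 2675 FPM across the gates.

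Of the Runx genes only Runx3 passed between KO and control IELp, by a small margin. Runx3 (chromosome 4, 135120652 to 135177990, plus strand), the Runx factor of CD8 T cells, had 152, 142 and 134 FPM in KO IELp, against 122, 125 and 120 FPM in control IELp. The KO libraries lay above the control libraries, and the rise was 1.19-fold (log2 fold change 0.24, SE 0.07, edgeR adjusted p = 0.023). This call held in 6 of 13 alternatives and was lost without control IELp replicate 1 or 2 (adjusted p of 0.0508 and 0.0542), without KO IELp replicate 1 or 2 (0.124 and 0.0741), in a fit of all 12 libraries (0.0558) and in both limma settings (0.14 and 0.148). Runx1 (chromosome 16, 92601466 to 92826149, minus strand) had 70.2, 74.8 and 60.3 FPM in KO IELp and 62.4, 56.9 and 57.4 FPM in control IELp. Those ranges overlapped and the difference did not pass (log2 fold change 0.24, 95% interval 0.040 to 0.44, edgeR adjusted p = 0.114). Runx2 (chromosome 17, 44495987 to 44814797, minus strand), best known as the regulator of bone formation, was scarce in both, with 1.19, 1.63 and 0.475 FPM in KO IELp and 1.43, 0.882 and 1.40 FPM in control IELp (edgeR adjusted p = 0.875).

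In the CD8aa cells all 3 Runx genes differed. Runx3 had 151, 166 and 156 FPM in KO spleen cells, against 313, 335 and 278 FPM in control IEL, and fell to 0.470 of its control level (log2 fold change -1.09, SE 0.08, edgeR adjusted p = 1.58e-06). Runx1 went the other way, with 72.4, 82.6 and 73.3 FPM in KO spleen cells, against 41.2, 44.9 and 35.6 FPM in control IEL. It rose 1.73-fold (log2 fold change 0.79, SE 0.11, edgeR adjusted p = 0.000126). Runx2 had 25.9, 15.9 and 17.3 FPM in KO spleen cells, against 43.6, 43.0 and 26.9 FPM in control IEL. The lowest control IEL library stood just above the highest KO spleen library, and Runx2 fell by 1.06 on the log2 scale (SE 0.22, edgeR adjusted p = 0.00249).

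Between IELp and CD8aa cells, Runx2 showed the widest change among the Runx genes in both genotypes. It rose 19.7-fold in KO spleen cells against KO IELp (log2 fold change 4.30, SE 0.32, edgeR adjusted p = 1.64e-07), as against a 36.1-fold rise in control IEL against control IELp (5.17, SE 0.26, edgeR adjusted p = 3.01e-08). The difference between these rises did not pass (log2 difference -0.89, KO minus control, SE 0.51, edgeR adjusted p = 0.171), but without KO IELp replicate 3 it did (-1.29, adjusted p = 0.0442). Runx3 rose 1.19-fold in KO spleen cells against KO IELp (log2 fold change 0.26, SE 0.06, edgeR adjusted p = 0.00533), although the ranges overlapped and the call was lost with limma on log2(FPM + 1) (adjusted p = 0.182). In control IEL against control IELp it rose 2.96-fold (1.56, SE 0.08, edgeR adjusted p = 2.96e-08). The difference between the changes was -1.33 on the log2 scale, KO minus control (SE 0.10, edgeR adjusted p = 2.07e-08). Runx1 was higher in KO spleen cells than in KO IELp (log2 fold change 0.27, SE 0.09, edgeR adjusted p = 0.0302), with overlapping ranges, and lower in control IEL than in control IELp (-0.31, SE 0.11, edgeR adjusted p = 0.0246). The rise was lost without KO IELp replicate 1 (adjusted p = 0.0673), KO IELp replicate 3 (0.144) or KO spleen replicate 2 (0.12), and with limma on log2(FPM + 1) (0.265). The fall was lost without control IELp replicate 1 (adjusted p = 0.0817), control IEL replicate 1 (0.0607) or control IEL replicate 3 (0.0708). The difference between the Runx1 changes passed (0.55, KO minus control, SE 0.14, edgeR adjusted p = 0.00475).

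**Figure D3:**
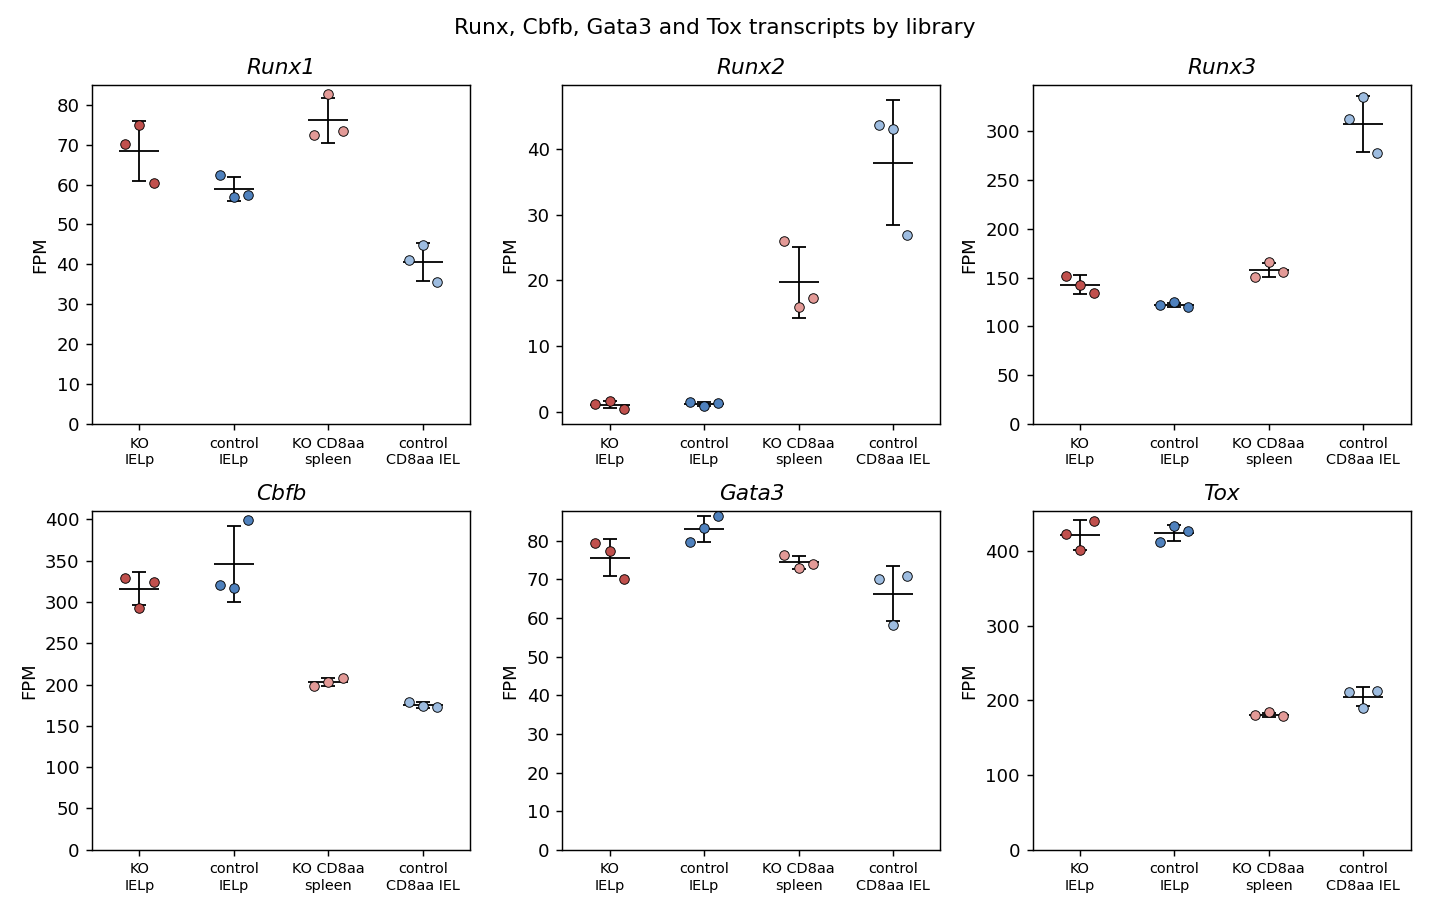
FPM of Runx1, Runx2, Runx3, Cbfb, Gata3 and Tox in each of the 12 libraries (points), with the mean and SD of each group of 3 (bars). Runx3 lies between 278 and 335 FPM in control CD8aa IEL and between 120 and 166 FPM in every library of the other 3 groups.

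The balance of Runx3 and Runx1 was higher in control IEL than in the other 3 groups. The log2 ratio of Runx3 to Runx1 counts was 1.12, 0.93 and 1.15 in KO IELp and 0.96, 1.14 and 1.07 in control IELp, which overlapped (difference 0.0093, SE 0.087, exact permutation p = 0.9, 2-sided). It was 1.07, 1.01 and 1.09 in KO spleen cells, against 2.92, 2.90 and 2.96 in control IEL. This difference of -1.87 (SE 0.03) was larger than the spread of either group, with an exact permutation p of 0.1, the smallest possible. KO spleen cells and KO IELp differed by -0.011 (SE 0.074, exact permutation p = 0.9), while control IEL and control IELp differed by 1.87 (SE 0.05, exact permutation p = 0.1). A p that misses the threshold does not show that the ratios were equal.

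Per kb of exon, Runx3 made up most of the summed Runx level in every library. The lengths join all annotated exons of a gene, 12025 bp for Runx1, 8837 bp for Runx2 and 5003 bp for Runx3. Which transcripts the cells made is not known, and the shares depend on these lengths. Its share was 83.1 ± 1.32% in KO IELp and 82.9 ± 0.954% in control IELp, and among CD8aa cells it was 78.6 ± 1.24% in KO spleen cells and 89.0 ± 1.06% in control IEL (SD, n = 3 each). Runx1 held 15.8 ± 0.569% in KO spleen cells and 4.87 ± 0.0723% in control IEL. Runx2 held 5.59 ± 1.66% in KO spleen cells and 6.12 ± 1.04% in control IEL, and at most 0.547% in any IELp library. The summed Runx level per kb was 34.3 ± 2.34 in KO IELp and 29.5 ± 0.416 in control IELp. Among CD8aa cells it was 40.1 ± 1.56 in KO spleen cells and 69.3 ± 7.14 in control IEL.

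**Figure D4:**
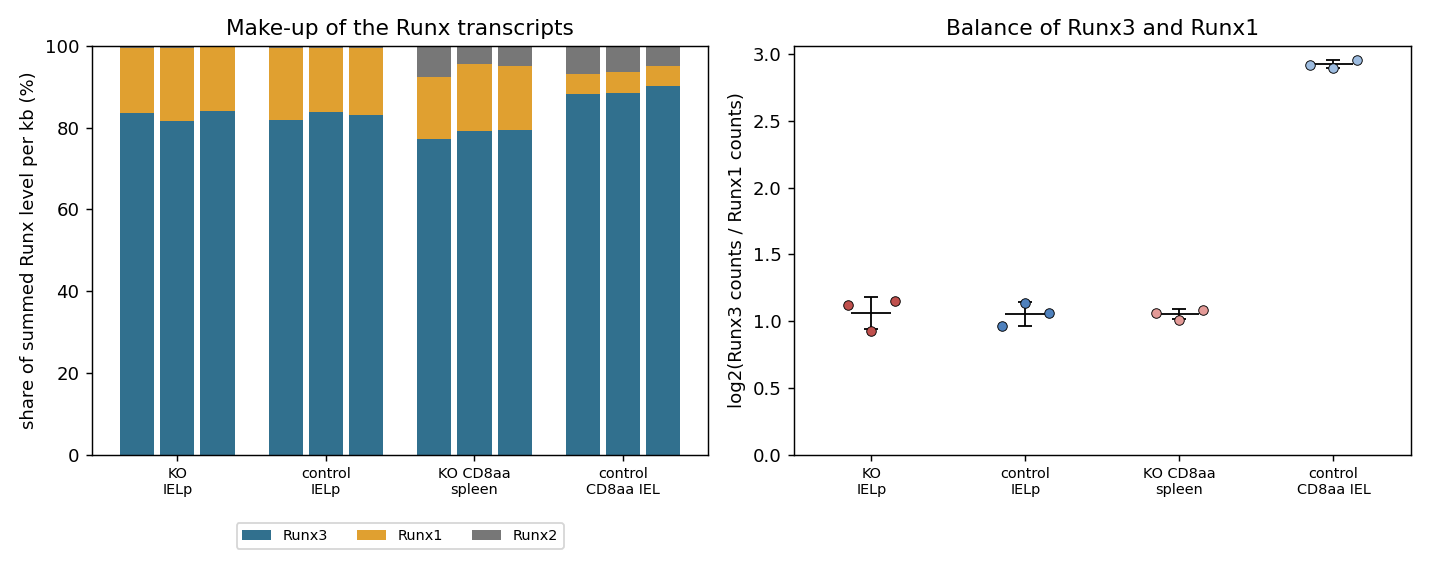
Left, share of Runx3, Runx1 and Runx2 in the summed Runx level per kb of exon (%), 1 bar per library. Right, log2 ratio of Runx3 to Runx1 counts per library (points) with the mean and SD of each group of 3; control CD8aa IEL lie at 2.90 to 2.96 and the other 9 libraries at 0.93 to 1.15.

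Cbfb, the partner of all Runx proteins (chromosome 8, 105170674 to 105217989, plus strand), was lower in CD8aa cells than in IELp of both genotypes. It had 329, 293 and 324 FPM in KO IELp and 321, 317 and 399 FPM in control IELp, with overlapping ranges and no call (log2 fold change -0.11, 95% interval -0.28 to 0.058, edgeR adjusted p = 0.428). It had 198, 203 and 208 FPM in KO spleen cells and 179, 174 and 173 FPM in control IEL. These groups did not overlap, yet the difference did not pass in edgeR (0.090, 95% interval -0.038 to 0.22, adjusted p = 0.206) and did pass in limma on log2(FPM + 1) (0.21, adjusted p = 0.0428). Cbfb fell by 0.53 on the log2 scale in KO spleen cells against KO IELp (SE 0.05, edgeR adjusted p = 4.09e-06) and by 0.75 in control IEL against control IELp (SE 0.09, edgeR adjusted p = 2.84e-05). The difference between the falls did not pass (0.20, SE 0.11, edgeR adjusted p = 0.151). Per kb, Cbfb stood at 2.65 ± 0.259 times the summed Runx level in KO IELp and 3.37 ± 0.509 times in control IELp, and at 1.45 ± 0.0651 times in KO spleen cells and 0.731 ± 0.0731 times in control IEL.

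Gata3, a zinc finger factor needed for CD4 T cell development (chromosome 2, 9857078 to 9890034, minus strand), lay between 58.1 and 86.3 FPM in all 12 libraries. It had 79.3, 77.3 and 70.2 FPM in KO IELp and 79.6, 83.2 and 86.3 FPM in control IELp, and 76.2, 72.9 and 74.0 FPM in KO spleen cells and 70.0, 58.1 and 70.8 FPM in control IEL. None of the 4 comparisons passed in edgeR, with log2 fold changes of -0.11 in KO against control IELp (95% interval -0.28 to 0.052, adjusted p = 0.398), 0.044 in KO spleen cells against control IEL (-0.16 to 0.25, adjusted p = 0.701), 0.089 in KO spleen cells against KO IELp (-0.069 to 0.25, adjusted p = 0.352) and -0.093 in control IEL against control IELp (-0.30 to 0.11, adjusted p = 0.399). The last passed in limma on log2(FPM + 1) (-0.32, adjusted p = 0.0269), a scale on which the median gene was at -0.213.

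Tox, an HMG box factor (chromosome 4, 6686353 to 6991557, minus strand), was the member least different between KO and control IELp. It had 422, 401 and 440.4 FPM in KO IELp and 412, 433 and 426 FPM in control IELp (log2 fold change 0.013, 95% interval -0.092 to 0.12, edgeR adjusted p = 0.901). Among CD8aa cells it had 180.1, 184 and 179 FPM in KO spleen cells, against 211, 189.9 and 213 FPM in control IEL. The fall was small (log2 fold change -0.30, SE 0.07, edgeR adjusted p = 0.00288). It was lost with limma on log2(FPM + 1) (-0.17, adjusted p = 0.107). Tox fell by 1.11 on the log2 scale in KO spleen cells against KO IELp (SE 0.05, edgeR adjusted p = 1.1e-09) and by 0.82 in control IEL against control IELp (SE 0.07, edgeR adjusted p = 1.15e-06). The antisense gene Gm11802 overlaps 260 bases of Tox exons, and its own counts averaged 86.5 ± 7.41 FPM in KO IELp and 90.2 ± 10.4 FPM in control IELp, and 42.4 ± 3.22 FPM in KO spleen cells and 47.3 ± 0.530 FPM in control IEL. No source used here gives a strand setting for the counting, so reads of overlapping genes cannot be told apart. Among the others, the antisense partners of Runx1, Runx2 and Gata3 stayed at or below 10.5 FPM.

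The change between IELp and CD8aa cells was set against genotype in 1 fit of all 12 libraries. It differed between KO and control for 6 of the 9 genes, where 46.7% of all 15757 tested genes differed. Without Cd8a and Cd8b1, on which the gates act, it differed for 4 of 7. Cd4 (5.91, SE 0.88, edgeR adjusted p = 4.19e-05), Cd8b1 (2.97, SE 0.58, edgeR adjusted p = 0.000565) and Runx1 (given above) had the higher KO change. Cd8a (-3.04, SE 0.10, edgeR adjusted p = 1.04e-12), Runx3 (above) and Tox (-0.31, SE 0.08, edgeR adjusted p = 0.00545) had the lower one. All 6 passed in each of 16 alternatives, although the Cd4 value depends on control IEL replicate 3 and the Cd8b1 value was 3.86 without control IEL replicate 1. The tissue of the CD8aa cells differed with the genotype in this contrast.

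Genes that act with the members were counted from lists. Of 29 tested genes of Cd4 silencing and chromatin machinery, 5 rose and 1 fell in KO IELp, where 6.48% of all genes were higher and 6.58% lower. The list median log2 fold change was 0.096, beside -0.0054 over all tested genes. Ehmt2, which encodes the histone methyltransferase G9a, averaged 47.8 ± 3.33 FPM in KO IELp and 18.9 ± 2.29 FPM in control IELp (log2 fold change 1.36, SE 0.11, edgeR adjusted p = 9.54e-07). Dnmt3a, a de novo DNA methyltransferase, averaged 307 ± 24.5 FPM in KO IELp and 204 ± 17.4 FPM in control IELp (0.61, SE 0.07, edgeR adjusted p = 3.63e-05). Suv39h1, another histone methyltransferase, also rose (0.50), as did Hdac1 (0.22) and the member Runx3, while Dnmt3b fell by 0.69. The Runx3 call held in 6 of 13 alternatives. Against control IEL, 15 of the 29 silencing genes rose and 2 fell in KO spleen cells (median 0.30, beside 0.0045 over all genes), where 58.2% of all genes passed. For KO spleen cells against KO IELp 9 rose and 13 fell, beside 45.0% of all genes, and for control IEL against control IELp 4 rose and 20 fell, beside 64.8%. Uhrf1, which maintains DNA methylation, averaged 94.1 ± 21.5 FPM in KO spleen cells and 18.0 ± 2.09 FPM in control IEL, and 152 ± 11.1 FPM in KO IELp and 146 ± 4.53 FPM in control IELp.

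Of 20 tested Runx cofactors and partners, 2 rose (Cbfa2t3 and Hdac1) and 1 fell (Ep300) in KO IELp, where 13.1% of all genes passed. The list median log2 fold change was 0.070. Cbfa2t3, a corepressor of the ETO family, averaged 2.86 ± 1.11 FPM in KO IELp and 0.978 ± 0.306 FPM in control IELp, and 26.8 ± 3.01 FPM in KO spleen cells and 0.279 ± 0.0257 FPM in control IEL (log2 fold change in CD8aa cells 6.43, SE 0.22, edgeR adjusted p = 7.49e-09). For KO spleen cells against control IEL 8 of 20 rose and 3 fell, with a median of 0.11, where 58.2% of all genes passed, so the share called was near that of all genes. For KO spleen cells against KO IELp 12 rose and 5 fell (median 0.30), where 45.0% of all genes passed, and for control IEL against control IELp 7 rose and 7 fell (median 0.11), where 64.8% passed. Myb, a factor of immature T cells, averaged 56.3 ± 9.12 FPM in KO spleen cells and 0.630 ± 0.481 FPM in control IEL.

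Factors of CD4 and CD8 lineage choice showed 6 genes that rose and 4 that fell of 29 tested in KO IELp, where 13.1% of all genes passed. Zbtb7a, the targeted gene, is among the 4 that fell, and the list median log2 fold change was 0.050. Id3, an inhibitor of E proteins, averaged 534 ± 20.6 FPM in KO IELp and 737 ± 19.7 FPM in control IELp (log2 fold change -0.44, SE 0.05, edgeR adjusted p = 1.09e-05). Satb1, a chromatin organiser, rose (0.29) and Lef1 fell (-0.29). Zbtb7b, which encodes ThPOK, averaged 1.93 ± 0.735 FPM in KO IELp and 2.04 ± 0.945 FPM in control IELp and did not pass (edgeR adjusted p = 0.931). Among CD8aa cells 18 of 30 rose and 8 fell, Zbtb7a among the latter, in KO spleen cells against control IEL, beside 58.2% of all genes. The calls were led by Satb1 (387 ± 5.94 FPM in KO spleen cells and 14.9 ± 0.849 FPM in control IEL), Eomes, Lef1 and Tcf7. Tcf7, an HMG box factor of the Wnt pathway, averaged 1255 ± 25.8 FPM in KO spleen cells and 180.4 ± 6.99 FPM in control IEL. Relative to KO IELp, 14 of 29 rose and 11 fell in KO spleen cells, beside 45.0% of all genes, and for control IEL against control IELp 10 of 30 rose and 15 fell, beside 64.8%.

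Among known targets of Runx3 or Runx1 in T cells, 2 of 16 tested rose (Cd8a and Itgae) and 1 fell (Cd4) in KO IELp. Over all genes 6.48% were higher and 6.58% lower there, and the list median log2 fold change was -0.011. Itgae, the αE integrin chain that binds epithelial cadherin, averaged 63.3 ± 9.97 FPM in KO IELp and 48.9 ± 3.85 FPM in control IELp (log2 fold change 0.40, edgeR adjusted p = 0.0264). In CD8aa cells it averaged 48.1 ± 4.12 FPM in KO spleen cells and 3775 ± 81.1 FPM in control IEL (-6.41, SE 0.08, edgeR adjusted p = 2.85e-11). Gzmb, the cytotoxic protease granzyme B, averaged 40.9 ± 6.11 FPM in KO spleen cells and 14836 ± 264 FPM in control IEL, while Eomes, a T-box factor, averaged 92.2 ± 2.14 FPM in KO spleen cells and 1.04 ± 0.00801 FPM in control IEL. Of the targets tested in KO spleen cells against control IEL 10 of 19 rose and 9 fell (median 0.75), where 29.1% of all genes were higher and 29.2% lower. Against KO IELp, 14 of 18 rose and 2 fell in KO spleen cells (median 2.03), where 22.6% were higher and 22.4% lower. For control IEL against control IELp 11 of 18 rose and 6 fell (median 3.37), where 31.9% were higher and 32.9% lower. Cd8a, which the gates separate, is in this list.

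Of 17 tested genes linked to Gata3, 4 rose in KO IELp and 1 fell, with a median log2 fold change of 0.050. Over all genes 13.1% passed in this comparison, 6.48% higher and 6.58% lower. Gfi1, a zinc finger repressor, rose (log2 fold change 0.54, SE 0.09, edgeR adjusted p = 0.000911), as did Zfpm1, a cofactor of GATA factors (0.39), and Cd5, a receptor used in the IELp gate (0.24), and Cd3d fell (-0.23). Among 12 tested Tox family and HMG box genes 0 rose and 1 fell (Lef1) in KO IELp, beside 13.1% of all genes, with a median of 0.011. Of these genes 3 of 11 rose in KO spleen cells against control IEL, Lef1, Tcf7 and Sox4, and 5 fell, beside 58.2% of all genes. Of 16 genes of coreceptor signalling 4 rose and 3 fell in KO IELp, beside 13.1% of all genes. The kinase Fyn (0.26) and the adaptor Lat (0.36) were among those that rose, and the list median was -0.024. Against control IEL, 5 of the 16 signalling genes rose and 8 fell in KO spleen cells (median -0.20), where 29.1% of all genes were higher and 29.2% lower.

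The neighbours of the coreceptor genes were followed as well. Around Cd4, 10 of 12 listed genes, Cd4 itself among them, were tested in KO against control IELp. In this list 4 fell (Cd4, Lag3, Cdca3 and Gpr162) and 0 rose, where 6.58% of all genes were lower and 6.48% higher. The list median log2 fold change was -0.24, beside -0.0054 over all tested genes. Lag3, an inhibitory receptor that binds class II molecules, averaged 10.3 ± 1.86 FPM in KO IELp and 18.7 ± 2.30 FPM in control IELp (log2 fold change -0.84, SE 0.16, edgeR adjusted p = 0.00226). Gpr162 was low, with 0.254 ± 0.0685 FPM in KO IELp and 1.09 ± 0.483 FPM in control IELp. In CD8aa cells Lag3 averaged 9.07 ± 2.02 FPM in KO spleen cells and 77.6 ± 9.14 FPM in control IEL (-3.23, SE 0.15, edgeR adjusted p = 7.31e-08), where Cd4 differed the other way. Of the 9 genes of this list tested there, 2 rose, Cd4 and Tpi1 (0.45, edgeR adjusted p = 0.000279), and 3 fell, beside 29.1% higher and 29.2% lower over all genes. Around Cd8a, 7 of 10 listed genes were tested in IELp. Besides Cd8a, which rose, Krcc1 fell (-0.27), where 13.1% of all genes passed. In KO spleen cells against control IEL all 7 tested genes of this list passed, 2 higher and 5 lower, beside 58.2% over all genes. With Cd8a, Thnsl2 (-2.24), Kdm3a (-0.36), Krcc1 (-0.25) and Fabp1 fell, and Rmnd5a (0.88) and Cd8b1 rose. Fabp1 is also one of the gut epithelial markers given below, and it had 2.33, 1.8 and 12.7 FPM in control IEL.

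Markers of other cells moved with some of these results, and their part in them was not tested. In IELp, the summed level of 3 CD4 T cell markers (Cd4, Cd40lg and Zbtb7b) was 11.2 to 13.8 FPM in KO and 22.2 to 26.4 FPM in control cells. Cd4 is part of this sum, which is therefore not separate from the Cd4 result. Cd40lg, the CD40 ligand, fell with Cd4 (-0.74, SE 0.14, edgeR adjusted p = 0.00249), while Zbtb7b did not pass (edgeR adjusted p = 0.931). Over all genes tested in KO against control IELp 13.1% passed, 6.48% higher and 6.58% lower. Of 6 markers of invariant NKT cells, 4 fell in KO IELp (Slamf6, Klrb1c, Slamf1 and Zbtb16), with sums of 373 to 404 FPM in KO and 468 to 505 FPM in control IELp. Of 6 markers of regulatory T cells, 2 fell (Tnfrsf18 and Ctla4), with sums of 512 to 568 FPM in KO and 573 to 646 FPM in control IELp. Markers of double-positive thymocytes, which carry Cd4, Cd8a and Cd8b1, gave 0 calls among 9, with sums of 175 to 189.8 FPM in KO and 175 to 179.5 FPM in control IELp. The most abundant of them, Cd1d1 and Mns1, averaged 109 ± 5.64 and 41.8 ± 1.33 FPM in KO IELp and 109 ± 3.47 and 37.7 ± 1.65 FPM in control IELp.

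In the CD8aa cells Cd40lg was 0.451, 0.318 and 2.31 FPM in KO spleen cells, highest in the library in which Cd4 was highest, and 1.65 ± 1.13 FPM in control IEL. The 3 CD4 T cell markers, Cd4 among them, summed to 4.08 to 11.7 FPM in KO spleen cells and 5.84 to 8.31 FPM in control IEL. Over all genes tested in KO spleen cells against control IEL, 29.1% were higher and 29.2% lower. Of 5 markers of conventional CD8αβ T cells, 4 rose in KO spleen cells, Nsg2, Ccr7 and Cd8b1 among them, and 1 fell (Cd8a). Their sums, mostly Cd8a, were 1719 to 1751 FPM in KO spleen cells and 2369 to 2687 FPM in control IEL. Nsg2 averaged 157 ± 6.90 FPM in KO spleen cells and 9.14 ± 1.30 FPM in control IEL. Among B cell markers 5 of 6 tested rose in KO spleen cells, with sums of 184 to 216 FPM in KO spleen cells, Cd22 (91.3 to 115 FPM) and Cd79b (57.9 to 68.9 FPM) being the most abundant, and 40.3 to 67.9 FPM in control IEL, where Ms4a1, Pax5 and Ebf1 were at 0. Myeloid markers showed 5 that rose and 2 that fell of 7 tested, with sums of 47.5 to 76.2 FPM in KO spleen cells and 56.2 to 60.4 FPM in control IEL, where Cd14, Adgre1, C1qa, C1qb, S100a8 and S100a9 were at 0. Gut epithelial markers fell in all 10 tested, with sums of 14.0 to 16.9 FPM in KO spleen cells and 520 to 696 FPM in control IEL. Most of the control IEL sum was Cdh1 (397 ± 26.5 FPM) and Epcam (146 ± 37.3 FPM), while Fabp2 averaged 4.97 ± 3.16 FPM. Epcam also averaged 56.0 ± 0.676 FPM in KO IELp and 62.0 ± 4.72 FPM in control IELp, so the sum is not a measure of epithelial cells alone. Markers of γδ T cells summed to 465 to 474 FPM in KO spleen cells and 2326 to 2508 FPM in control IEL, with 3 of 5 tested lower and 2 higher. The lower ones were the γ chain constant genes Tcrg-C1 (-2.91), Tcrg-C2 (-2.42) and Tcrg-C4 (-2.66). The higher ones were Blk (7.68) and Trdc, the δ chain constant gene (0.74, edgeR adjusted p = 0.018). The sum therefore does not give a share of γδ cells, and both groups were sorted for TCRβ. Rag1, Rag2 and Ptcra, markers of double-positive thymocytes, were at 0 in all 6 CD8aa libraries.

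The genes most like each member were found by Pearson correlation of log2(FPM + 1) over the 12 libraries among 8797 genes, as a description of 4 groups that share libraries. Nearest to Cd8a were B3gnt7 (r = 0.997), Padi2 (0.996) and Ubac2 (0.995), and nearest to Runx3 were Ccr9 (0.991), Rin3 (0.989) and Sla2 (0.988). Ccr9, the gut-homing chemokine receptor, averaged 39.1 ± 3.25 FPM in KO IELp and 21.2 ± 0.808 FPM in control IELp, and 39.6 ± 3.23 FPM in KO spleen cells and 246 ± 30.7 FPM in control IEL. Runx2 was near to Ccl5 (0.989) and Sema4d (0.987), and Ccl5, a chemokine, averaged 806 ± 12.1 FPM in KO spleen cells and 2777 ± 469 FPM in control IEL. Runx1 was nearest to Spn (0.981), Erc1 (0.976) and Fam120a (0.976). Cbfb was nearest to Arl6ip1 (0.993), Tes (0.991) and Pradc1 (0.991), and Tox to Ephx1, Cd1d1 and Incenp (0.994 each). Cd8b1 was nearest to Kpnb1 (0.98), Trmt1 (0.979) and Adpgk (0.979). The nearest genes to Cd4, which was low in every library, were Ptger2 (0.955), Ap1m1 (0.931) and Myl6 (0.93), and those to Gata3 were Pdk2 (0.94), Gnb2 (0.918) and Chchd1 (0.916).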

How the data were processed

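RNA of 40000 sorted cells per sample was made into libraries with the SMARTer Ultra Low Input and Nextera XT kits and read as 76 bp pairs, per the labels' protocols. Per the submitters' processing notes, bcl2fastq 2.17, Trimmomatic, STAR, HTSeq, DESeq2 and build mm10 were used. For the authors' annotation and strand setting, no source used here gives an entry. The authors deposited read counts per gene, and a table named FPM whose values equal CPM of the gene counts. Reads not assigned to a gene (58.8% to 61.0% of each library's reads in the count table) stayed out of library sizes.

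Each pair of groups was tested on the deposited counts of its 6 libraries with edgeR 4.0.16 in R 4.3.3 (quasi-likelihood, 2-sided, filterByExpr, TMM, Benjamini-Hochberg over all genes tested, threshold 0.05), and the difference between the stage changes in a fit of all 12. All 9 members passed the filter on low counts in every comparison. SEs are the log2 fold change over the square root of F. Ratios took an added count of 0.5 and exact permutation tests. Levels per kb used exon lengths of GENCODE vM21, which also gave the positions. All annotated exons of a gene were joined, and shares and multiples per kb depend on that choice. Alternatives were median-of-ratios size factors, DESeq2 1.42.0, no filter, a replicate block, 1 fit of all libraries, limma 3.58.1 on log2(FPM + 1) or log2(FPM + 0.1) for genes with a mean of at least 1 FPM, and leaving out each library. The fit was also run on simulated counts drawn with the spread fitted to these data and with few changed genes. That run does not show how the fit behaves where a large share of genes differs.

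The members, gene lists and alternatives were chosen with earlier results of these data known. The text names the 9 members, Zbtb7a, up to 4 genes of a list with the smallest adjusted p (without a call, the 2 most abundant) and, for each member, the 3 best correlated genes with a mean of at least 10 FPM. Suv39h1, Hdac1, Runx3, Dnmt3b and Trdc complete a count. Pdcd1, Cd44, Il2rb, Trac, Uhrf1 and Epcam in IELp, Zbtb7b, Cd22, Cd79b, the Cd8a neighbours and Tpi1 were named with their values in view. Some genes that this rule names are not reported here.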

Additional observations from a re-analysis of the deposited data

Results flagged for a closer look

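For 6 of the 9 genes the change between IELp and CD8aa cells differed between KO and control mice in a test of that difference (edgeR, all 12 libraries, KO change minus control change on the log2 scale). Over all 15757 tested genes 46.7% differed, and without Cd8a and Cd8b1 it was 4 of 7 members. The difference was 5.91 for Cd4, 2.97 for Cd8b1 and 0.55 for Runx1, and it was -3.04 for Cd8a, -1.33 for Runx3 and -0.31 for Tox. In the groups themselves, Cd8a was 18.0 times as high in KO spleen cells as in KO IELp and 134 times as high in control IEL as in control IELp by mean FPM. Runx3 was 1.10 times as high in KO spleen cells as in KO IELp and 2.52 times as high in control IEL as in control IELp. Cd4 was 2.57 times as high in KO spleen cells as in KO IELp and 0.0342 times as high in control IEL as in control IELp. Spleen and gut cannot be told apart from genotype in these values. Groups of 3 libraries were too small to look for single libraries far from the others.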

How the results depend on the processing

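The number of genes called in KO against control IELp was 1911 with edgeR, 1097 with limma on log2(FPM + 1) and 935 on log2(FPM + 0.1), and between 1239 and 1808 without 1 library, with control IELp replicate 2 (1270) and KO IELp replicates 2 (1239) and 3 (1265) moving it most when left out. In KO spleen cells against KO IELp 8 members lay past the threshold with edgeR, 5 in both limma settings (without Cd4, Runx1 and Runx3) and 6 to 8 without 1 library. Cd8a and, where it passed, Cd8b1 are within these counts, and as the gates differ in CD8 no test of them is read. The cause was not tested. No member and no ratio that was called changed sign under any alternative run. The replicate numbers were used as a replicate block although they do not pair the samples: same-numbered libraries correlated between -0.124 and 0.205 in their deviations. With the replicate block 1541 genes were called in KO against control IELp, and 3 of the 9 members. Values of Cd4 and Cd8b1 in control IEL rest on 14 counts each in all, so depth limits their fold changes. Cell makeup and tissue limit every level here. The missing strand setting limits those of the members whose exons overlap another gene, Runx1, Runx2, Gata3 and Tox.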
